A study of Drosophila melanogaster with 2 samples.

Results

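The 6 Drosophila melanogaster genes described here lie at the intronic regions that anti-GFP chromatin immunoprecipitation of Giant-eGFP recovered with the highest signal: CG11050, Adf1, HmgZ, CG32772, cbt and Lk6. They are 6 of 13945 protein-coding genes on the main chromosome arms of dm6. They were chosen by the peak signal of the region, a value from the authors' peak caller on a scale that no label or header explains, so signals, ranks and list membership below are descriptions without a test. For each gene, every region whose summit lay in the gene body or within 5000 bp of it was taken, which gave 132 of 145186 main-arm regions in the ranked list of both replicates together. The libraries came from whole embryos, 0 to 18 h old, of 1 strain carrying an eGFP-tagged copy of giant (gt). The series has 1 group with 2 biological replicates and no second genotype or treatment. The labels give no promoter, clone or cell type for the tagged copy, and a whole embryo mixes all its tissues. Since peak lists carry no read numbers, the depth of each library is unknown.

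Giant is a basic leucine zipper repressor of the gap class, which helps to set the anterior-posterior pattern of the early embryo. Transcription factors of this kind often act from introns as well as from promoters, and first introns of fly genes frequently carry enhancers or start sites of shorter transcripts. The products of the 6 genes have diverse roles. Adf1 is a MADF-BESS transcription factor first known as an activator of Alcohol dehydrogenase. HmgZ is an HMG-box protein that binds and bends DNA in chromatin. cbt (cabut) encodes a zinc-finger factor of the TIEG class that takes part in dorsal closure, and Lk6 is the fly kinase of the Mnk type, which phosphorylates the cap-binding protein eIF4E. CG11050 and CG32772 are annotated as uncharacterized proteins in RefSeq.

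The strongest regions of 4 of the genes are shown in full, on the + strand of dm6 and from the RefSeq copy of that assembly, because the CAGTG copies and the base composition described below can be read in them. The centre between flanks richer in G and C is clearest at CG11050, where the centre is intron and the flanks are exon, and at cbt. They are the regions at CG11050 (chr2L:6612562-6612856), CG32772 (chrX:4910231-4910502), cbt (chr2L:480937-481234) and Lk6 (chr3R:11760940-11761168). Capitals mark the 5 letters CAGTG on either strand, searched because it is frequent at the summits of this series.
CG11050: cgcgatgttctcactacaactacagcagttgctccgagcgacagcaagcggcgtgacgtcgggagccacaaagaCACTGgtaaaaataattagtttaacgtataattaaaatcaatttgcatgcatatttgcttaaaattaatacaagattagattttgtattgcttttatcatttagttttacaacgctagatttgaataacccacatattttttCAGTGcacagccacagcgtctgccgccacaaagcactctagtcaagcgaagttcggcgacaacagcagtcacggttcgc
CG32772: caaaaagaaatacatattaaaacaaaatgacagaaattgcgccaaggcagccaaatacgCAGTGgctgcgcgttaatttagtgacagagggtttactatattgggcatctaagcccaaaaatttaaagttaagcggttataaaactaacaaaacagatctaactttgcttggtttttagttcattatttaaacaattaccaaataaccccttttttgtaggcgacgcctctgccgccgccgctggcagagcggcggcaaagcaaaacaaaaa
cbt: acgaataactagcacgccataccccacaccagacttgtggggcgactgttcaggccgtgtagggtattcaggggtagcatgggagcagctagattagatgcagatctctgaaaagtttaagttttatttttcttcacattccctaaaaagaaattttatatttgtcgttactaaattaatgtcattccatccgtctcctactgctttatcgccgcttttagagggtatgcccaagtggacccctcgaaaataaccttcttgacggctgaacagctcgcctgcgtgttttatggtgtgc
Lk6: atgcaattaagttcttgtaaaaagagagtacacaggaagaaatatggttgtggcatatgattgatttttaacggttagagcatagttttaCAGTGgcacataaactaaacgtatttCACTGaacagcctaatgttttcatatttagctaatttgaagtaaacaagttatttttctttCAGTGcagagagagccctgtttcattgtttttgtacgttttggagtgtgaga

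The centre of each strongest region was poorer in G and C than its flanks. Within 25 bp of the summit, GC content was 19.6% at CG11050, 21.6% at cbt and 27.5% at Adf1, and it was 31.4% at each of HmgZ, CG32772 and Lk6. From 75 to 150 bp away it was 58.0% at CG11050, 56.7% at cbt, 57.3% at Adf1, 46.7% at HmgZ, 52.0% at CG32772 and 44.7% at Lk6. At CG11050 the core lay within an intron of 140 bp, while the flanks began beyond its ends. Of that region 155 of 295 bp were exon. The value was 0 bp at the other genes, in the transcripts whose intron held the summit. The part of exon sequence in the contrast at CG11050 was not tested. All 6 differences were negative, from -38.4 percentage points at CG11050 to -13.3 at Lk6. With a core of 10 bp on either side they were -3.81 at HmgZ and -1.81 at Lk6, and 70.1% of thresholded intronic regions were at or below the Lk6 value. In sliding windows, GC content near Lk6 was already 34.1% at 110 bp to the left of the summit, and at CG32772 it was 24.4% there, so the flanks on that side were not evenly rich in G and C. The median difference was -9.24 points over the 636 intronic regions of the thresholded list, -17.5 over the 100 of these with the highest signal, and 1.53 over all ranked regions. A dip was common among the intronic regions: 75.3% of the 636 had a lower GC content at the centre, and 38.8% had a difference of -13.3 points or lower. The 4 genes in the thresholded list are counted in these medians. The measure was chosen after the sequences were seen.

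**Figure D1:**
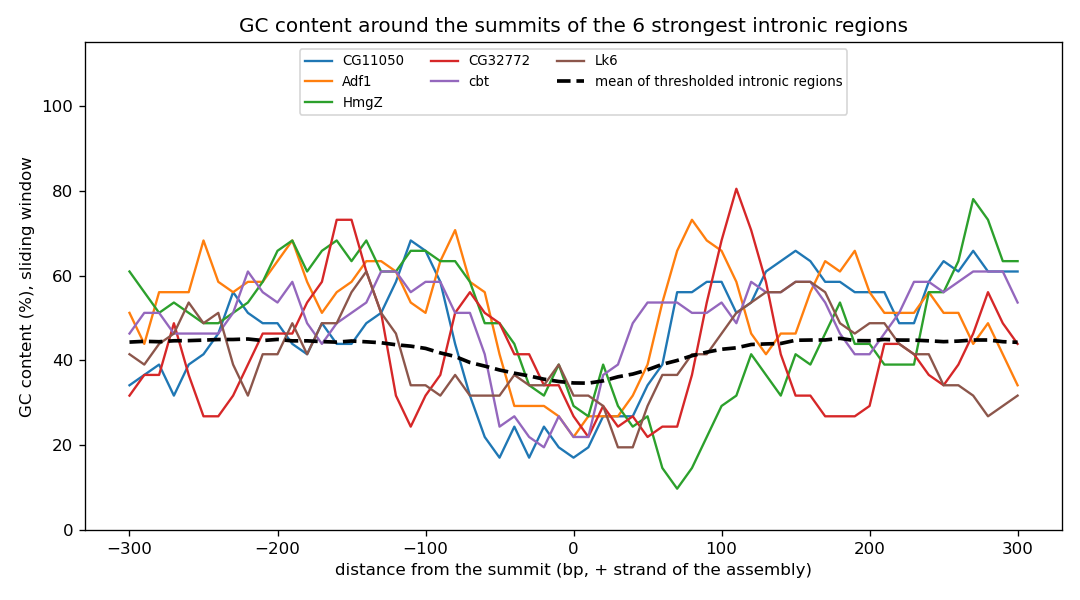
GC content (%, in sliding windows of 41 bp) against distance from the summit (bp, + strand of dm6) for the strongest region at each of the 6 genes, with the mean over the 636 thresholded intronic regions as a dashed line. Each coloured line dips within 100 bp of the summit, with the lowest point of HmgZ to the right of it. At CG11050 the dip falls on an intron of 140 bp between exons. The dashed line dips less, but it is a mean over many summits, so its depth cannot be compared with that of a single sequence.

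CAGTG lay within 100 bp of the summit at 4 of the 6 genes, CG11050, HmgZ, CG32772 and Lk6, and not at Adf1 or cbt. It was present in 56.6% of the 636 thresholded intronic windows, in 50.7% of all thresholded windows and in 35.0% of all ranked windows of the same length. The Lk6 window held 3 copies, the CG11050 window 2, and those of HmgZ and CG32772 held 1 each. Of the thresholded intronic windows, 18.6% held 2 or more copies and 2.99% held 3 or more. At Lk6 a copy lay on the summit itself, with the others 26 bp to the left and 61 bp to the right. At CG11050 the copies lay 76 bp to the left and 66 bp to the right of the summit, on opposite strands. The left one ended on the last base of exon 2 (position 6612640), and the right one (6612778 to 6612782) spanned the junction of the intron with exon 3.

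The other letters searched were each in 0 or 1 of the 6 windows, and most were also uncommon among thresholded intronic windows, so nothing is read from their absence. A binding site of Giant, TTACGTAA, searched with up to 1 mismatch, was in 0 of the 6 windows, against 8.49% of thresholded intronic windows and 5.29% of all ranked windows. The extended core ACAGTGG was in the Lk6 window (13.2% of thresholded intronic windows), and a further copy lay in the HmgZ region 155 bp from its summit. The GAGA factor letters GAGAG were in the Lk6 window (27.7%). CAGTGTA (9.91% of thresholded intronic windows), TATCGATA (0.314%), CAGGTAG (1.26%), GGTCACACT (0%), CAGCTG (7.70%) and CACGTG (1.73%) were in 0 of the 6 windows. Both strands were searched, and ACAGTGG and CAGTGTA contain the shorter CAGTG.

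The strongest regions had no second copy in the assembly by alignment, nor did they align to each other. An alignment of each against the whole assembly found 1 full-length identical match, the region itself, and 0 other alignments at an e-value of 1e-05, which includes alignments among the 6. None overlapped an annotated transposable element. The nearest was at Adf1, where an S element of 1735 bp lies in the same intron, 1038 bp away. At the other 5 genes the nearest element was 23440 bp (HmgZ) to 167450 bp (CG11050) away.

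At CG11050 (FBgn0031836, 2L, 6611011 to 6617117, + strand) the strongest region had a signal of 828.1 and ranked 5 of 145186 main-arm regions. Its signal was 350.9 in replicate 1 (rank 10) and 468.5 in replicate 2 (rank 5). The summit lay in intron 2 of all 3 transcripts, an intron of 140 bp, 74 bases from its 5′ end and 67 from its 3′ end. The region was wider than the intron, and 155 of its 295 bp were exon. Another region lay at the promoter of the gene, with a signal of 73.2 (rank 1444), and was also in the thresholded list. It was 27.9 in replicate 1 and 37.9 in replicate 2, and it was in neither replicate's own thresholded list. The strongest region was thus 11.3 times the next one in the window.

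At Adf1 (FBgn0284249, 2R, 6662265 to 6668085, + strand) the region 6662934 to 6663196 had a signal of 664.9 and ranked 13. The replicates gave 310.6 (rank 13, replicate 1) and 352.7 (rank 18, replicate 2). The summit lay 800 or 805 bp downstream of the annotated starts, in an intron of 3962 bp that is intron 1 of a single transcript and intron 2 of the other 3. No other region of the pooled list near Adf1 was strong: the next, at the promoter, had a signal of 35.8 (rank 18533), and the ratio between them was 18.6. It was 14.4 in replicate 2 but 8.85 in replicate 1, where CG11050 had a higher ratio, 12.6. Replicate 1's own thresholded list held a further region at 6663387 to 6663642, with a signal of 35.1.

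The region at HmgZ (FBgn0010228, 2R, 21697488 to 21707861, − strand) lies in introns of a pair of genes at once. Its coordinates were 21703212 to 21703559, its signal was 631.5 and its rank 16. Replicate 1 gave 245.7 (rank 23) and replicate 2 gave 369.1 (rank 16). The summit was in intron 1 of transcripts HmgZ-RB and HmgZ-RD and 569 bp upstream of the start of HmgZ-RA and HmgZ-RC, just beyond the 500 bp that would have made it a promoter region. On the other strand it lay in intron 1 of HmgD-RD, 1941 bp from that start. HmgD (FBgn0004362, 2R, 21701458 to 21716727) encodes the closely related HMG-box protein, so the region cannot be given to only 1 of the pair by position. A weaker region at 21700624 to 21700979, intronic in HmgZ and nearest to a start of HmgD, had a signal of 73.3 and was also in the thresholded list, but in neither replicate's own.

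At CG32772 (FBgn0052772, X, 4909102 to 4915161, + strand) the strongest region had a signal of 616.3 and ranked 18. The replicates gave 270.1 and 340.0, with rank 19 in both. The summit was near the middle of an intron of 1054 bp, 1255 bp downstream of the start of transcripts RC and RE and 2024 bp upstream of the start of RD and RF. The next region, 4919501 to 4919856, was nearest to Hgsnat, with a signal of 69.5. In replicate 1 it had a signal of 51.9 and was in the thresholded list. The overlapping region of replicate 2 had a signal of 17.0, with its summit at 4919873, outside the joint region.

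The region nearest to cbt is intronic in another gene. It had a signal of 882.3, which ranked 4 among main-arm regions and was the highest of the intronic regions past the reproducibility threshold given below, with 375.4 in replicate 1 (rank 6) and 526.8 in replicate 2 (rank 4). Its summit lay 1409 bp upstream of cbt (FBgn0043364, 2L, 476446 to 479688, − strand), whose 3 transcripts share a start. The intron belongs to ush (u-shaped, FBgn0003963, 2L, 476220 to 540560, + strand), which encodes a zinc-finger cofactor of GATA factors and spans cbt on the opposite strand. The summit was in intron 1 of ush-RD and ush-RE, 4877 bp from their start. The region is thus intronic to ush by position and assigned to cbt by the nearest start. This locus also had the strongest further regions of the 6 genes, a promoter region of CG4297 (2L, 472315 to 472670, signal 167.8) and the promoter region of cbt itself (2L, 479880 to 480235, signal 163.9, with 67.5 in replicate 1 and 92.3 in replicate 2).

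At Lk6 (FBgn0017581, 3R, 11750931 to 11764457, − strand) the strongest region had a signal of 576.7 and ranked 21. The signal was 260.0 in replicate 1 (rank 22) and 332.6 in replicate 2 (rank 20). The summit lay in intron 1 of Lk6-RA, 3399 bp downstream of that start, and 979 bp upstream of the start of the shorter Lk6-RB. The next region in the window was in coding sequence, nearest to the start of l(3)neo38 at 2699 bp, with a signal of 61.4.

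**Figure D2:**
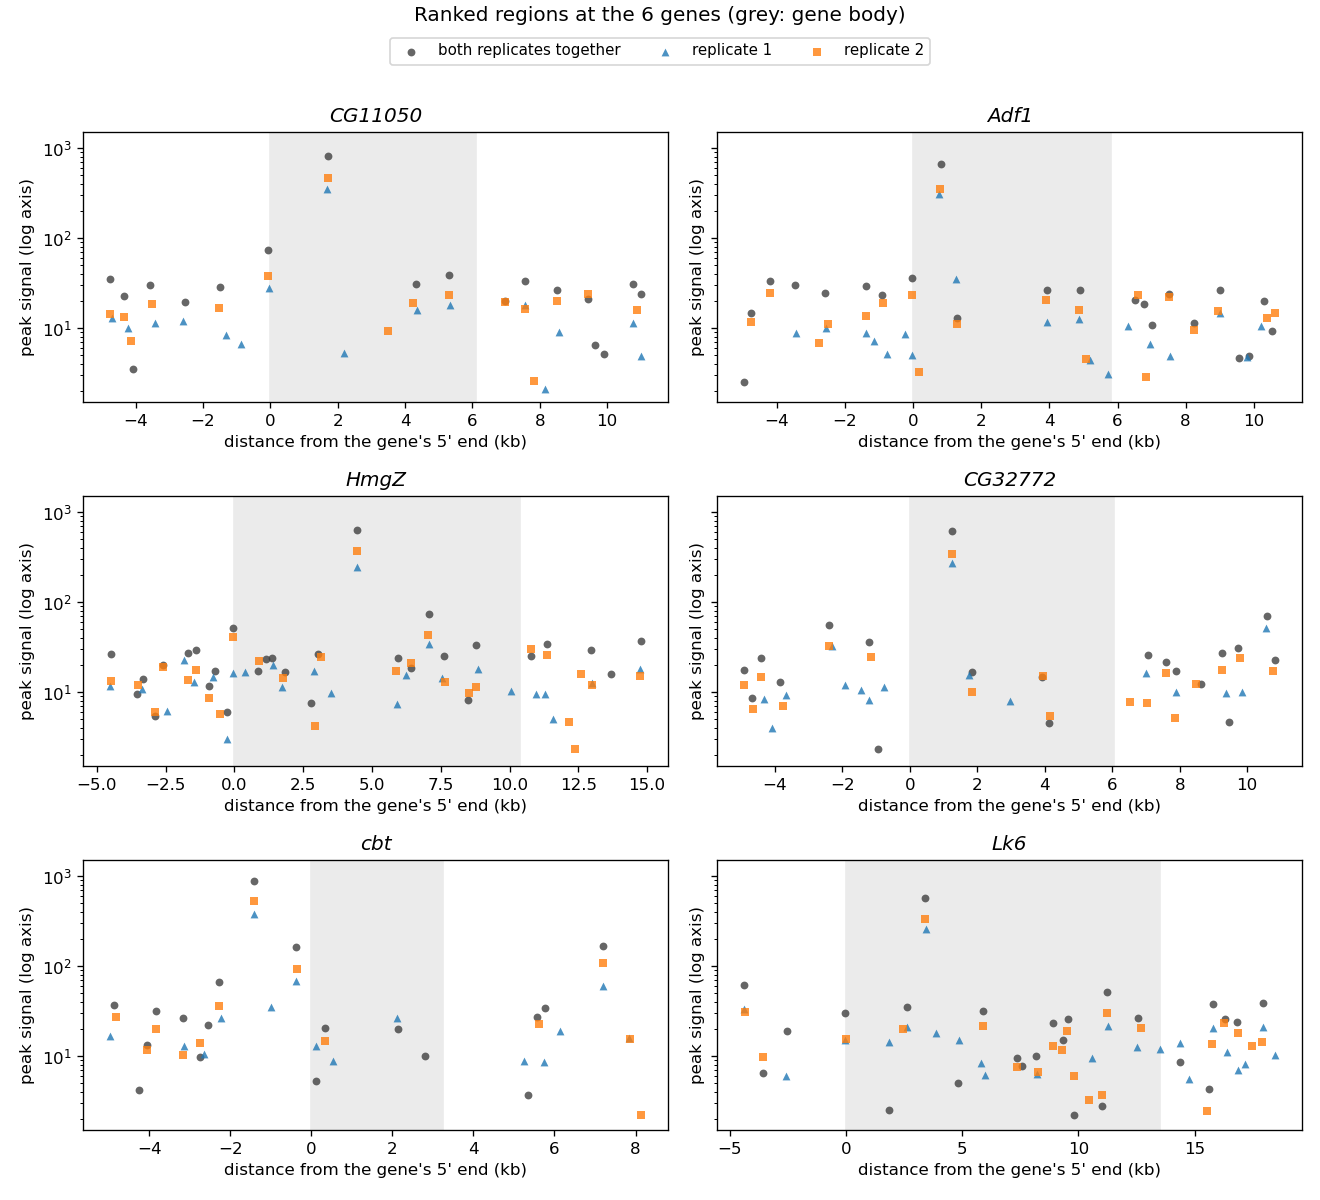
Peak signal (log axis) of every ranked region at the 6 genes against the distance of its summit from the gene's 5′ end (kb), for both replicates together (circles), replicate 1 (triangles) and replicate 2 (squares). The gene body is grey. Each gene has a single region far above the rest in all 3 lists, inside the gene body except at cbt, where it lies upstream.

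All 6 strongest regions were recovered in both replicates. Signals of 245.7 to 375.4 in replicate 1 were 22.6 to 34.5 times that list's median. Signals of 332.6 to 526.8 in replicate 2 were 24.7 to 39.1 times the median of its list. Replicate 2 over replicate 1 ran from 1.14 at Adf1 to 1.5 at HmgZ, beside a median of 1.37 over 1801 thresholded regions found in both ranked lists (10th to 90th percentile 0.804 to 2.44). Summits of the replicates were 2 bp apart at HmgZ, 5 at CG32772, 6 at cbt, 19 at CG11050 and Lk6, and 25 at Adf1. The median gap was 29 bp over the 1801 regions and 13 bp over the 100 of highest signal, whose median ratio was 1.24. The joint list was made from the same reads, so the replicates' signals are not independent of the values that chose the genes.

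The regions were narrower than the usual width, as strong intronic regions often were. Widths were 229 bp at Lk6 to 348 bp at HmgZ in the ranked list of both replicates together, where 99.9% of regions were 356 bp wide. In replicate 1 they were 158 to 207 bp, against a usual 256 bp, and in replicate 2 they were 212 to 296 bp, against a usual 350 bp. Of the 100 thresholded intronic regions of highest signal, 59% were narrower than the usual width, with a median of 210.5 bp. The intronic regions next in signal, described below, were narrow too, at 234 bp (Tlk), 240 bp (LPCAT), 176 bp (trx) and 141 bp (tara).

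Without the strongest region, the others numbered 10.2 (Lk6) to 13.7 (HmgZ) per 10000 bp, against 10.8 for all regions over the main arms. Their median signal was 17.4 at CG32772 to 26.6 at CG11050, against 19.4 for the list. The number per gene was 18 at CG11050 and cbt, 20 at CG32772, 22 at Adf1, 25 at Lk6 and 29 at HmgZ, against a median of 16 for protein-coding genes (10th to 90th percentile 8 to 29).

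The 6 summits lay 569 bp (HmgZ) to 1409 bp (cbt) from the nearest annotated start site, a distance the choice of genes did not fix except that promoters within 500 bp were left aside. The median distance was 2836 bp over the 636 thresholded intronic regions (10th to 90th percentile 714 to 12624 bp) and 1695 bp over the 100 of these with the highest signal (687 to 7872 bp). Such closeness was common: 30.8% of the 636 and 44% of the 100 lay within 1500 bp of a start. Of the intronic regions next in signal, LPCAT was 687 bp and Tlk 2306 bp from a start. The summits lay downstream of that start at CG11050, Adf1 and CG32772 and upstream of it at HmgZ, cbt and Lk6.

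CG11050, Adf1, HmgZ and CG32772 had a thresholded summit, with 6 summits in all, and cbt and Lk6 had 0. Of all protein-coding genes 24% (3345) had a thresholded summit in the body or within 5000 bp. The genes were chosen on these lists, so nothing is read from the count. The thresholded list holds regions with an irreproducible discovery rate (IDR, computed from the ranks of each region in a pair of peak sets) of at most 1 in 100, or 2 on the −log10 scale. All 6 strongest regions reached 5, the highest value the file gives. At cbt, 3 regions passed the threshold and were left out of the list, spanning summits 472493 to 481097, while the nearest kept summits lay 10457 bp to the left and 4799 bp to the right of the strongest. At Lk6 only the strongest passed and was left out. On the main arms 67 of 1892 regions past the threshold were left out, 16 of them intronic. The deposited text files record that the thresholded lists were derived with a further input file that the ranked lists were not, and its part in what was left out was not tested.

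By signal, the genes just outside the set stood lower, which the choice of the genes by highest signal fixed in advance. In the thresholded list the next intronic regions were nearest to Tlk (X, 3742103 to 3742336, 501.0), which encodes the Tousled-like kinase, and LPCAT (X, 9579167 to 9579406, 469.9), after CG32772 with 616.3. Among the regions left out, trx (3R, 14283791 to 14283966, 275.8), the founding trithorax group gene, and tara (3R, 16236914 to 16237054, 272.7) followed Lk6 with 576.7. Likeness was also measured among strongest intronic regions, by the distance between log2 signals in the joint list and both replicates, 3 values a gene. Genes chosen for the highest intronic signal lie near each other by this measure, so it restates the choice: CG11050 and cbt to each other (0.22), CG32772 and Lk6 to each other (0.11), and Adf1 (0.24) and HmgZ (0.18) to CG32772. Among intronic regions the nearest gene outside the set was Tlk for each, at 0.41 from Lk6 to 1.46 from cbt, and regions of other classes, some with signals between those of the 6, were not compared.

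**Figure D3:**
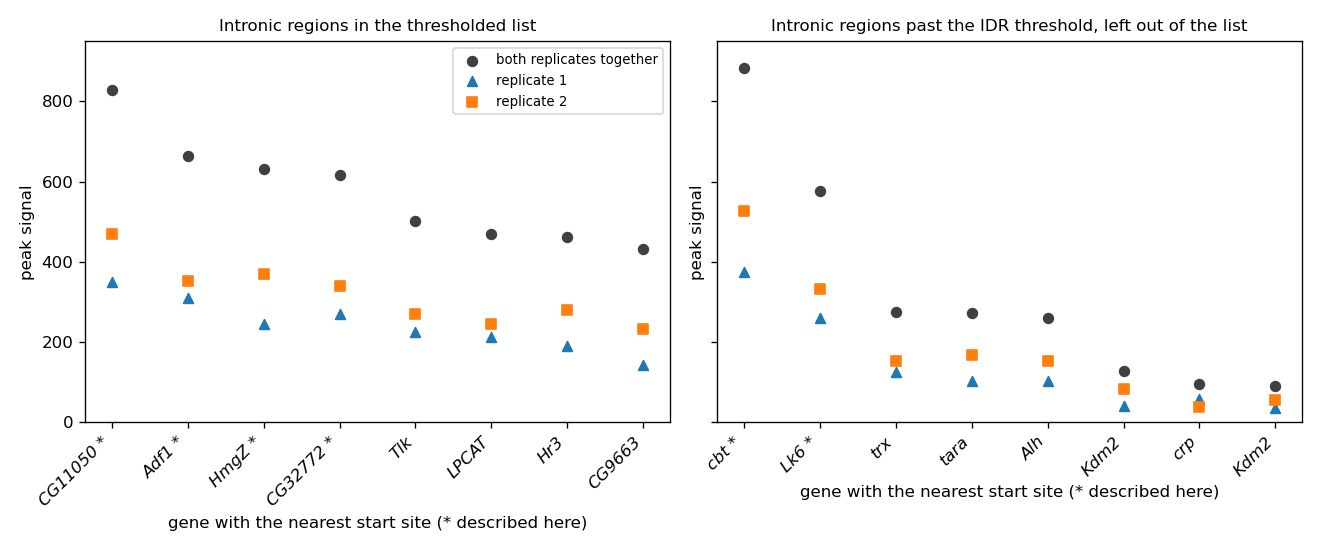
Peak signal of the 8 strongest intronic regions in the thresholded list (left) and among regions past the IDR threshold that were left out of it (right), for both replicates together (circles), replicate 1 (triangles) and replicate 2 (squares). Asterisks mark the 6 genes described, which lead both panels.

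Relatives of 4 of the genes were examined from lists of gene families. Among genes with MADF domains, other than Adf1, 5 of 9 had a thresholded summit in the body or within 5000 bp: brwl (299.2, at its promoter), hng2 (227.9), jigr1 (150.9), hng3 (108.3) and stwl (73.5). The summits at hng2 and stwl were nearest to the starts of CG9837 and CG3919. Among HMG-box genes other than HmgZ it was 7 of 18. HmgD shared the region of HmgZ, and the others were Sox14 (454.1, at its promoter), bbx (237.7, at its promoter), Dsp1 (174.3, nearest to CG9921), Sox15 (108.2, at the promoter of the ribosomal protein gene RpS23), Sox100B (79.6) and cic (78.5). Sox14 was the strongest of these relatives that did not share a region with the 6 genes, with 179.0 in replicate 1 and 270.4 in replicate 2. It encodes a Sox factor of the ecdysone response.

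Other zinc-finger factors of the SP and KLF classes had weaker regions than cbt, which was itself chosen for its high signal. Of 9 such genes 4 had a thresholded summit, Spps (83.4, at the promoter of mask), luna (82.2, nearest to the start of CG43188), CG3065 (76.8, at the promoter of CG34213) and dar1 (76.1). The strongest regions at the head and terminal genes btd and hkb had signals of 32.0 and 34.8 and did not pass the threshold. Among MAP kinase and translation genes other than Lk6 it was 3 of 13: Raf, p38a and rl. The strongest region at Raf (341.8) was in its intron, and 8 thresholded summits lay in the gene or within 5000 bp. At p38a (190.3) it was at the promoter of the gene, and rl (88.4) encodes the fly ERK kinase. The strongest region within 5000 bp of eIF4E1, which encodes the substrate of Lk6, had a signal of 53.3 and did not pass the threshold. That region lay outside the gene body and was nearest to the start of Cpr67B. Over the 4 families 19 of 49 relatives (38.8%) had a summit, against 24% of all protein-coding genes, and the median gene body was 4683 bp in the relatives against 2166 bp overall. HmgD is counted there although it shares the region that chose HmgZ, and without it the count was 18 of 48 (37.5%). The part of gene length in that share was not tested. In 7 of the 19 the strongest region was intronic in some gene. At hng2 and Dsp1 among these it lay outside the relative's own body, and at HmgD it was the region of HmgZ. In 11 of the 19 the start nearest to the strongest region was the gene's own.

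**Figure D4:**
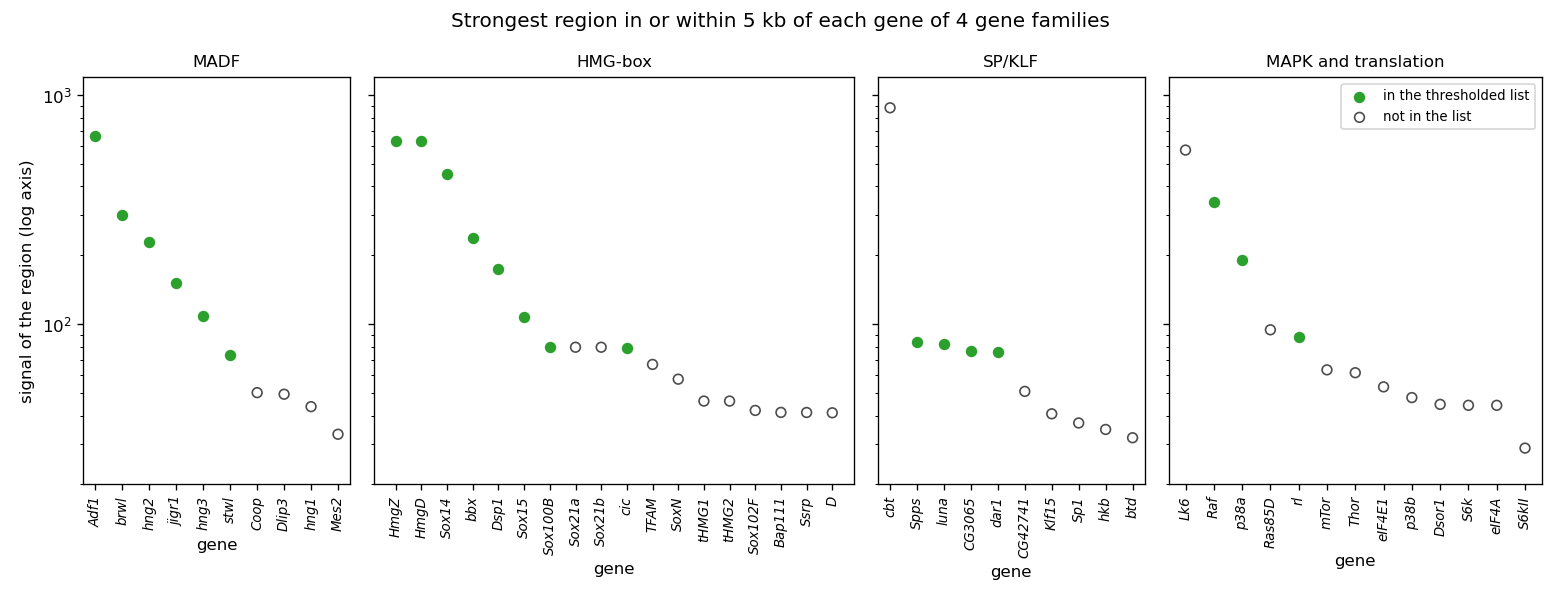
Signal (log axis) of the strongest ranked region in or within 5000 bp of each gene of 4 families. Filled points were in the thresholded list and open points were not, cbt and Lk6 among them, and 2 genes of chromosome 4 without a region are not drawn.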

How the data were processed

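Regions were read from the peak lists of 2 biological replicates and of both together. The labels and the deposited text files give the assembly as dm6 and a control as input to the calls. No label or header names the aligner or the peak caller. The signal of each region was deposited by the authors on a scale that is not stated. The −log10 IDR is the global value in the authors' ranked lists. Deposited summit offsets were used as given, and the authors' deposited score columns were not used. The members, the gene families, the motifs and the measures were chosen with earlier results of these data known. Named genes were the members, genes overlapping their strongest regions, family genes with a thresholded summit, the next 2 intronic genes in each set, and the gene most like each member. Other genes were named after their values were seen, as neighbours of a region. Of 55 family symbols, 2 were dropped because they name no MADF gene, and 2 were matched through synonyms. Another listed gene is not reported here.

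Summits were placed on Ensembl release 115 genes and the Release 6 sequence with Python 3.11.15, pandas 2.3.3 and numpy 2.4.6. A summit within 500 bp of a protein-coding start was called promoter, then exon parts, intron or intergenic. Windows for motifs reached 100 bp on either side of the summit. Regions were aligned to the assembly with blastn 2.17.0. Counting and motif search were tested on simulated data with planted summits and motifs. Overlaps needed 1 bp. No test was run, since the series has 1 group and signal chose the genes. Alternatives were other gene windows, other lists, each replicate alone, other overlap rules and other sequence windows.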

Additional observations from a re-analysis of the deposited data

How the results depend on the processing

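The window around the genes set the number of ranked regions, which was 132 within 5000 bp, 43 in gene bodies alone and 71 within 2000 bp, and 80 of the 132 lay above the median signal of the list. Each replicate alone gave 114 to 116. The 6 thresholded summits were 10 when every region past the IDR threshold was counted, kept or not, and 4 to 6 in a single replicate's list. CAGTG lay within 100 bp of 4 of the 6 summits but within 50 bp of only 1, the Lk6 summit. Within 200 bp of the summit, ACAGTGG and GAGAG were each at 2 of the 6 genes, and CAGCTG and CACGTG each at 1. Within 50 bp GAGAG was at 0. No share of other regions is given at these widths. Family genes with a thresholded summit, members included, numbered 21, and 14 by gene bodies alone. The strongest region of each gene was the same region in every list and setting tried that ranked it. The difference in GC content between summit and flanks was below 0 at all 6 genes under 5 choices of width, chosen after the data were seen, but at 10 bp from the summit it was -1.81 points at Lk6 and -3.81 at HmgZ, against a median of -9.48 for thresholded intronic regions. With flanks of 150 to 300 bp it was -8.96 at CG32772, against a median of -12.1, and 57.4% of those regions were at or below -8.96. No paired analysis was possible because the series has 1 group. Among the ranks the largest move was at HmgZ, rank 23 in replicate 1 and 16 in the joint list. Depth is unknown, so for a weak region absence from a replicate's list cannot be told from lack of reads.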

Other observations

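The replicates' own lists held few further thresholded regions at the 6 genes. In replicate 1 the list added a region of Adf1 with a signal of 35.1 and a region near CG32772 with a signal of 51.9, and it held neither the promoter region of CG11050 nor the weaker region of HmgZ. In replicate 2 the list held only the strongest regions of CG11050, Adf1, HmgZ and CG32772. The family gene Ras85D, which encodes the Ras GTPase upstream of Raf, had a promoter region past the IDR threshold (signal 94.7, with 37.7 in replicate 1 and 45.5 in replicate 2) that was left out of the thresholded list, as at cbt and Lk6. Of the 16 intronic regions left out, those next in signal after trx and tara were nearest to Alh (260.2), Kdm2 (128.4 and 89.6) and crp (95.1). These genes are named here after their values were seen, and weaker regions are not listed.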
